A study of Mus musculus with 14 samples.

Results

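Leukemic progenitors from mice given the mutant IDH1 inhibitor AG120 for 14 days were compared with those from mice given vehicle for 14 days. The comparison holds every library the series has at that time, 4 of 14, with 2 AG120 mice against 2 vehicle mice, and it was followed over all genes. AG120 (AG-120, ivosidenib) is an oral inhibitor of mutant IDH1. All mice, vehicle mice included, had been transplanted with the I1DN leukemia, an acute myeloid leukemia whose alleles the labels do not spell out beyond the title's reference to mutant IDH1. The sources used here give neither age nor strain, and do not say whether the transplants derive from 1 donor leukemia. From each mouse, cells that were cKit+ and CD11b- were sorted, so each library is the bulk RNA of 1 mouse's sorted progenitors. In such bulk RNA, fewer cells of a type and less RNA per cell cannot be told apart. The series also holds progenitors after 5 days of either treatment (3 libraries each), used below for the change with time, and 4 libraries from relapse.

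Wild-type isocitrate dehydrogenase makes 2-oxoglutarate, and the mutant enzyme converts it on to 2-hydroxyglutarate, a competitor of the dioxygenases that remove methyl groups from DNA and histones. In acute myeloid leukemia this block is known to hold progenitors short of maturation, and inhibitors of the mutant enzyme are differentiation agents. A red cell precursor is marked by GATA1 and KLF1, the transferrin receptor, the enzymes of heme synthesis, the spectrin and ankyrin skeleton under its membrane and, late, by globin. A granulocyte and monocyte precursor is marked by PU.1, CEBPA and the granule proteins that begin with myeloperoxidase.

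Levels are CPM, the counts per 3′ end gene divided by the library total after trimmed mean (TMM) scaling. This total includes the ribosomal RNA counts. The 2 values of a group are always replicate 1 and then replicate 2, called AG120 1, AG120 2, vehicle 1 and vehicle 2 where a library is left out. The libraries held 1259982 and 1978091 counts outside ribosomal RNA with AG120 and 2436871 and 2627684 with vehicle. A gene with 0 counts allows at most 3 counts (counting error only). Over the scaled total with ribosomal RNA, that is 0.895 and 0.600 CPM with AG120 against 0.440 and 0.415 CPM with vehicle. Ribosomal RNA took 74.8% and 63.1% of the AG120 counts and 68.1% and 55.8% of the vehicle counts, and mitochondrial genes took 1.02% and 1.139% of the rest against 0.732% and 0.706%. The AG120 libraries were thus the shallower ones and had the higher mitochondrial share, which moves with every gene group below; its part in them was not tested. Differences (log2FC) are log2 fold changes of AG120 over vehicle ± standard error, from edgeR's quasi-likelihood test fitted over all 14 libraries. The test gives no standard error itself. It was taken as the absolute log2 fold change divided by the square root of the test's F statistic. A gene rose or fell where its adjusted p (Benjamini-Hochberg over all 11994 genes tested) was under 0.05. The genes tested were the 11994 of 52636 in the table that passed a filter on low counts; the rest have no call.

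At 14 days, 2010 of 11994 genes rose (16.8%) and 2149 fell (17.9%), 34.7% in all. Among changes over 2-fold the balance tilted downward, with 919 genes higher (7.66%) and 1612 lower (13.4%), while the median log2 fold change over all genes was -0.01. The 2 groups did not overlap in 70.5% of all genes tested, so a lack of overlap alone marks no gene out. Leaving out AG120 replicate 1, AG120 replicate 2, vehicle replicate 1 and vehicle replicate 2 in turn left 3003, 2797, 2925 and 2752 genes, and no gene called both with and without a library changed direction.

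The rises and falls given first are from the largest and surest among genes whose groups did not overlap and whose mean log2 CPM was 3 or more. Ermap, an erythroid membrane protein of the Scianna blood group (ENSMUSG00000028644, chromosome 4, 119175457 to 119190011, minus strand, mm10), had 7.62 and 8.02 CPM in vehicle and 335 and 225 CPM in AG120, a 35.6-fold difference (log2FC 5.16 ± 0.90, adjusted p = 0.00161). Ank1, which ties spectrin to the membrane, had 1.32 and 1.38 CPM in vehicle and 64.2 and 63.0 CPM in AG120 (log2FC 5.54 ± 1.10, adjusted p = 0.00333). Both genes were low in both vehicle libraries and high in both AG120 libraries, with no overlap. Sphk1, the sphingosine kinase that red cells use to make sphingosine 1-phosphate, rose from 1.61 and 1.52 to 49.3 and 55.6 CPM (log2FC 5.05 ± 0.32, adjusted p = 9.17e-09).

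Of the falls, Cd34, the surface antigen of stem and progenitor cells (ENSMUSG00000016494, chromosome 1, 194938819 to 194961279, plus strand), had 147 and 141 CPM in vehicle and 4.48 and 5.80 CPM in AG120, a 27.3-fold fall (log2FC -4.77 ± 0.23, adjusted p = 1.86e-09). Sox4, a transcription factor of progenitors (ENSMUSG00000076431, chromosome 13, 28948919 to 28953713, minus strand), had 307 and 361 CPM in vehicle and 9.85 and 9.81 CPM in AG120 (log2FC -5.09 ± 0.76, adjusted p = 5.62e-04). In both genes each AG120 library lay more than an order of magnitude under each vehicle library. Rgs1, a brake on chemokine receptor signalling, fell from 49.2 and 60.3 to 0.895 and 1.601 CPM (log2FC -5.36 ± 0.81, adjusted p = 4.24e-04). Gmfg, an actin branch regulator of hematopoietic cells, fell from 41.0 and 47.3 to 2.39 and 2.20 CPM (log2FC -4.26 ± 0.22, adjusted p = 2.37e-09). Ptpn18, a tyrosine phosphatase, went from 138 and 157 to 13.1 and 17.0 CPM (log2FC -3.27 ± 0.16, adjusted p = 1.86e-09).

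**Figure D1:**
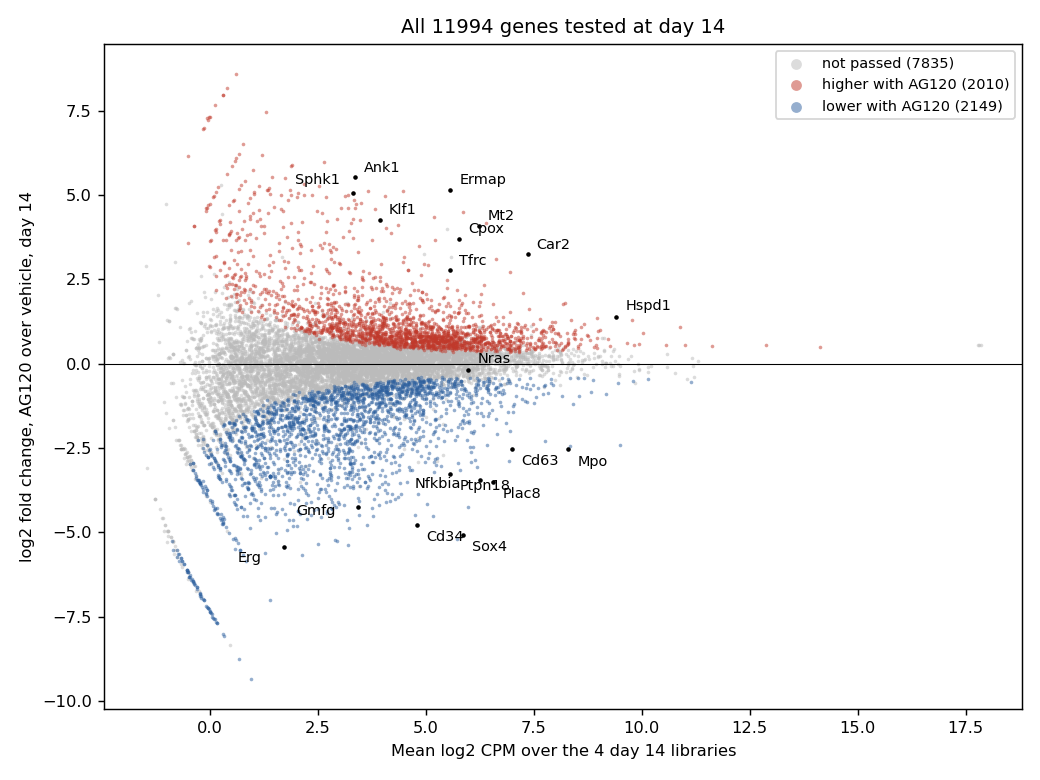
Each point is 1 of 11994 genes, with its mean log2 CPM over the 4 day 14 libraries on the x axis and its log2 fold change of AG120 over vehicle on the y axis. Red marks the 2010 genes that rose, blue the 2149 that fell and grey the rest; Ermap and Ank1 lie near the top, Sox4 and Cd34 near the bottom and Nras near 0, and the diagonal lines at low level are genes at or near 0 counts in a group.

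Idh1, Idh2, Dnmt3a and Nras were looked at next, and then the genes of the sort. Beyond mutant IDH1, the labels do not say which genes are altered in the leukemia. Idh1 had 43.7 and 36.5 CPM in vehicle and 9.55 and 11.01 CPM in AG120 (log2FC -1.95 ± 0.41, adjusted p = 0.00255). Idh2, the mitochondrial enzyme of the same reaction, had 106 and 126 CPM in vehicle and 31.0 and 40.2 CPM in AG120 (log2FC -1.69 ± 0.19, adjusted p = 3.44e-06). Dnmt3a, a DNA methyltransferase often mutated beside IDH1, fell from 107 and 93.0 to 31.6 and 37.4 CPM (log2FC -1.53 ± 0.15, adjusted p = 8.44e-07). For Nras the level was 63.3 and 71.9 CPM in vehicle and 63.6 and 54.4 CPM in AG120, and its log2 fold change of -0.20 did not pass the test (adjusted p = 0.358). Counts at the 3′ end of a mouse gene do not tell its mutant from its normal allele, and the gene models are those of the mouse genome alone.

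Of the genes used for the sort, Kit had 35.0 and 36.8 CPM in vehicle and 11.6 and 11.6 CPM in AG120 (log2FC -1.62 ± 0.49, adjusted p = 0.0220), still present but lower in both AG120 libraries; its adjusted p was 0.0943 without AG120 replicate 1, 0.115 without AG120 replicate 2, 0.0588 without vehicle replicate 1 and 0.0747 without vehicle replicate 2. Itgam, which encodes CD11b, had 18.02 and 14.5 CPM in vehicle and 5.97 and 8.01 CPM in AG120 and did not pass (adjusted p = 0.154). Ptprc, which encodes the leukocyte antigen CD45, had 99.2 and 89.4 CPM in vehicle and 18.5 and 19.8 CPM in AG120 (log2FC -2.29 ± 0.15, adjusted p = 1.35e-08). Cd34 and Ptprc were not used in the sort. Summed over Kit, Cd34 and Ptprc the levels stood at 281 and 267 CPM in vehicle and 34.6 and 37.2 CPM in AG120.

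Markers of other cells that the sort could hold ranged from absent to abundant. The 5 B cell markers summed to 1.76 and 2.49 CPM in vehicle and 0.298 and 0.400 CPM in AG120, the 5 T and NK cell markers to at most 0.293 CPM and the 5 stromal and endothelial markers to at most 1.49 CPM in any library. Cd3e, Cd8a, Ncr1, Cdh5 and Kdr had 0 counts in all 4 libraries. The 5 neutrophil markers summed to 664 and 832 CPM in vehicle and 979 and 1239 CPM in AG120. Most of this was S100a8, at 510 and 634 CPM in vehicle and 608 and 867 CPM in AG120, where the groups overlapped. Ltf, Camp, Ngp and Ly6g were each higher in both AG120 libraries. None of the 21 tested genes of the secondary granule and neutrophil list passed as higher. The 5 monocyte and macrophage markers stood at 17.7 and 12.4 CPM against 19.7 and 26.2 CPM, with Adgre1 at 0 counts in both AG120 libraries. The lists for other lineages held few tested genes: 0 rose and 2 fell of 3 B and plasma cell genes, 0 and 1 of 4 T and NK cell genes, 2 and 3 of 7 stromal and endothelial genes, and 1 and 1 of 9 dendritic cell and MHC class II genes. The 5 megakaryocyte markers stood at 220.2 and 249 CPM in vehicle and 67.5 and 75.9 CPM in AG120, and the 5 mast cell and basophil markers at 67.98 and 73.8 CPM against 8.06 and 7.81 CPM, with Fcer1a at 0 counts throughout. The 5 erythroid markers were at 32.1 and 44.1 CPM in vehicle and at 353 and 562 CPM in AG120. The part of these markers in the results below was not tested.

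Of the erythroid transcription regulators 12 of 22 rose and 5 fell (median log2FC 0.99), beside 16.8% and 17.9% of all genes. Klf1, the activator of adult globin and red cell membrane genes (ENSMUSG00000054191, chromosome 8, 84901928 to 84905291, plus strand), rose from 4.10 and 2.63 to 61.5 and 68.7 CPM (log2FC 4.27 ± 0.50, adjusted p = 2.66e-05). Gata1, the factor that drives the erythroid program, stood at 10.1 and 9.67 CPM in vehicle and 36.1 and 50.2 CPM in AG120 (log2FC 2.13 ± 0.51, adjusted p = 0.00659), and its adjusted p was 0.0595 without AG120 replicate 2 and 0.0555 without vehicle replicate 2. Its predecessor in progenitors, Gata2, moved the other way, from 77.1 and 70.3 to 17.3 and 10.6 CPM (log2FC -2.43 ± 0.49, adjusted p = 0.00256). For Klf1, Gata1 and Gata2 alike the 2 AG120 libraries lay on 1 side of both vehicle libraries.

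Klf3, a repressor that KLF1 induces, rose from 8.79 and 10.4 to 44.2 and 44.4 CPM (log2FC 2.21 ± 0.19, adjusted p = 1.68e-07). Zfpm1, the GATA1 partner FOG1, went from 32.4 and 27.0 to 87.5 and 67.3 CPM (log2FC 1.38 ± 0.45, adjusted p = 0.0345); its adjusted p was 0.148 without AG120 replicate 1, 0.0690 without AG120 replicate 2, 0.0978 without vehicle replicate 1 and 0.164 without vehicle replicate 2. E2f2, an E2F of maturing erythroblasts, rose from 5.57 and 5.39 to 23.0 and 21.8 CPM (log2FC 2.03 ± 0.24, adjusted p = 7.76e-06). The regulators that fell were Gata2, Lyl1 (-1.25), Nfe2 (-1.20), Hes6 (-1.08) and Cbfa2t3 (-0.71), each given as its log2 fold change. The adjusted p of Cbfa2t3 was 0.141 without AG120 replicate 1, 0.0543 without AG120 replicate 2, 0.106 without vehicle replicate 1 and 0.0558 without vehicle replicate 2. Lyl1 is a progenitor paralog of TAL1, and Nfe2 a platelet and globin regulator.

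Of the heme synthesis and handling genes 16 of 22 rose and 2 fell (median log2FC 2.002). The first step of heme synthesis in most cells, Alas1, had 10.8 and 6.77 CPM in vehicle and 6.27 and 3.603 CPM in AG120 and did not pass (log2 fold change -0.88, adjusted p = 0.310), while the erythroid form Alas2 had 0.147 and 0.691 CPM in vehicle and 6.87 and 12.4 CPM in AG120 (log2FC 4.46 ± 1.33, adjusted p = 0.0212); the adjusted p of Alas2 was 0.103 without AG120 replicate 2, 0.130 without vehicle replicate 1 and 0.0757 without vehicle replicate 2. Alad, which acts on the product of that step, had 16.3 and 21.4 CPM in vehicle and 99.996 and 111 CPM in AG120 (log2FC 2.48 ± 0.25, adjusted p = 1.10e-06). Of the later cytosolic enzymes, Uros had 1.03 and 1.66 CPM in vehicle and 4.48 and 8.61 CPM in AG120 (log2FC 2.29 ± 0.45, adjusted p = 8.52e-04). Urod had 8.94 and 6.08 CPM in vehicle and 30.1 and 36.8 CPM in AG120 (log2FC 2.16 ± 0.28, adjusted p = 1.51e-05).

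Of the mitochondrial end of the path, Cpox, coproporphyrinogen oxidase (ENSMUSG00000022742, chromosome 16, 58670292 to 58717636, plus strand), showed one of the larger changes, with 16.1 and 13.96 CPM in vehicle and 201 and 191 CPM in AG120 (log2FC 3.70 ± 0.29, adjusted p = 2.28e-07). Ppox, the next enzyme, had 27.5 and 26.5 CPM in vehicle and 36.1 and 35.0 CPM in AG120, and its log2 fold change of 0.39 did not pass (adjusted p = 0.0675). Fech, which inserts the iron, rose from 3.96 and 3.18 to 21.2 and 24.6 CPM (log2FC 2.68 ± 0.26, adjusted p = 7.52e-07). The porphyrin transporter Abcb6 rose from 1.90 and 2.07 to 22.7 and 21.6 CPM (log2FC 3.46 ± 0.33, adjusted p = 5.66e-07). Blvrb, a flavin and biliverdin reductase of red cells, went from 7.91 and 7.88 to 146 and 177 CPM (log2FC 4.35 ± 0.70, adjusted p = 8.69e-04). Each enzyme given here from Alas2 to Fech was thus higher in both AG120 libraries than in both vehicle libraries, with Ppox the 1 of them that did not pass.

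Iron genes followed, with 10 of 19 higher and 1 lower (median log2FC 1.12). Tfrc, the transferrin receptor (ENSMUSG00000022797, chromosome 16, 32608920 to 32632794, plus strand), had 17.4 and 18.1 CPM in vehicle and 119 and 124 CPM in AG120 (log2FC 2.77 ± 0.20, adjusted p = 4.72e-08). Slc11a2, which carries the iron out of the endosome, rose from 9.23 and 8.57 to 66.6 and 57.2 CPM (log2FC 2.79 ± 0.25, adjusted p = 3.68e-07). Steap3, the endosomal ferrireductase, went from 2.64 and 1.11 to 23.0 and 21.02 CPM (log2FC 3.55 ± 0.40, adjusted p = 4.32e-06). Slc40a1, the iron exporter ferroportin, rose from 0.879 and 1.11 to 26.3 and 21.02 CPM (log2FC 4.54 ± 0.54, adjusted p = 8.62e-06). The single iron gene that fell was Ncoa4, which delivers ferritin for degradation (log2FC -1.53 ± 0.36, adjusted p = 0.00334). For these genes of uptake, endosomal release, export and ferritin turnover the groups did not overlap.

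The red cell membrane and blood group list had the highest median of the lists, with 24 of 27 genes higher and 1 lower (median log2FC 4.02). Beside Ank1, the β spectrin chain Sptb had 0.586 and 0.691 CPM in vehicle and 47.2 and 35.8 CPM in AG120 (log2FC 5.97 ± 0.96, adjusted p = 5.70e-04). Epb42, protein 4.2, had 1 and 1 counts in vehicle and 34 and 67 counts in AG120 (adjusted p = 0.00124), too few vehicle counts for a stable ratio. Add2, an adducin, rose from 1.90 and 3.87 to 91.3 and 91.5 CPM (log2FC 4.97 ± 0.90, adjusted p = 0.00193).

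Of the surface antigens and channels of the list, Rhd (ENSMUSG00000028825, chromosome 4, 134864536 to 134896172, plus strand), the Rh blood group protein, had 2.78 and 4.42 CPM in vehicle and 116 and 139.7 CPM in AG120 (log2FC 5.14 ± 0.74, adjusted p = 3.72e-04). Slc4a1, the anion exchanger band 3, had 0.586 and 0.967 CPM in vehicle and 26.9 and 34.4 CPM in AG120 (log2FC 5.27 ± 1.72, adjusted p = 0.0385), with an adjusted p of 0.0782 without AG120 replicate 1, 0.108 without AG120 replicate 2, 0.169 without vehicle replicate 1 and 0.155 without vehicle replicate 2. Car1, a carbonic anhydrase, rose from 1.61 and 2.35 to 69.0 and 70.3 CPM (log2FC 5.12 ± 0.44, adjusted p = 6.68e-07). Tspo2, an erythroid cholesterol protein, went from 1.03 and 1.80 to 50.4 and 40.6 CPM (log2FC 4.98 ± 0.67, adjusted p = 1.33e-04). The single member that fell was Slc2a1, the glucose transporter GLUT1, at 3.22 and 3.73 CPM in vehicle and 0 and 1.601 CPM in AG120 (log2FC -1.88 ± 0.61, adjusted p = 0.0234), with an adjusted p of 0.136 without AG120 replicate 1, 0.0541 without vehicle replicate 1 and 0.0944 without vehicle replicate 2.

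Of 4 globin genes tested, 1 rose, and their median log2 fold change was 3.20. Hbb-bt had 25.2 and 43.4 CPM in vehicle and 218 and 377 CPM in AG120 (log2FC 3.12 ± 0.99, adjusted p = 0.0345), and its adjusted p was 0.0567 without AG120 replicate 1, 0.131 without AG120 replicate 2, 0.172 without vehicle replicate 1 and 0.108 without vehicle replicate 2. Hba-a1 had 6.45 and 14.8 CPM in vehicle and 67.5 and 133 CPM in AG120 and Hbb-bs had 8.64 and 14.4 CPM in vehicle and 126 and 242 CPM in AG120, with adjusted p values of 0.0808 and 0.0820. Both passed with limma-voom, in a fit on the day 14 groups alone and with a replicate block; Hba-a1 also passed with libraries thinned to equal depth and Hbb-bs with DESeq2. All 4 globin genes were higher in both AG120 libraries, but the adult α and β copies are near-identical pairs whose reads the counting could split, and their levels also varied between mice of a group.

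In the erythropoietin pathway the receptor gene Epor rose from 2.49 and 2.35 to 18.5 and 20.8 CPM (log2FC 3.02 ± 0.50, adjusted p = 2.90e-04), while 8 of the 17 genes on the list fell and 2 rose (median log2FC -0.87, or -0.84 with a member at 0 in a whole group set to its bound). Those that fell included Pim1, a kinase induced by STAT5, from 154 and 172 to 16.1 and 20.4 CPM (log2FC -3.15 ± 0.24, adjusted p = 8.40e-08). Lyn, a SRC family kinase (log2FC -1.85 ± 0.21, adjusted p = 4.52e-06), and Ptpn6, the phosphatase SHP-1 that dampens the receptor (log2FC -1.30 ± 0.18, adjusted p = 4.44e-05), fell as well. The count that fell was 7, 5, 7 and 6 without AG120 1, AG120 2, vehicle 1 and vehicle 2 in turn.

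**Figure D2:**
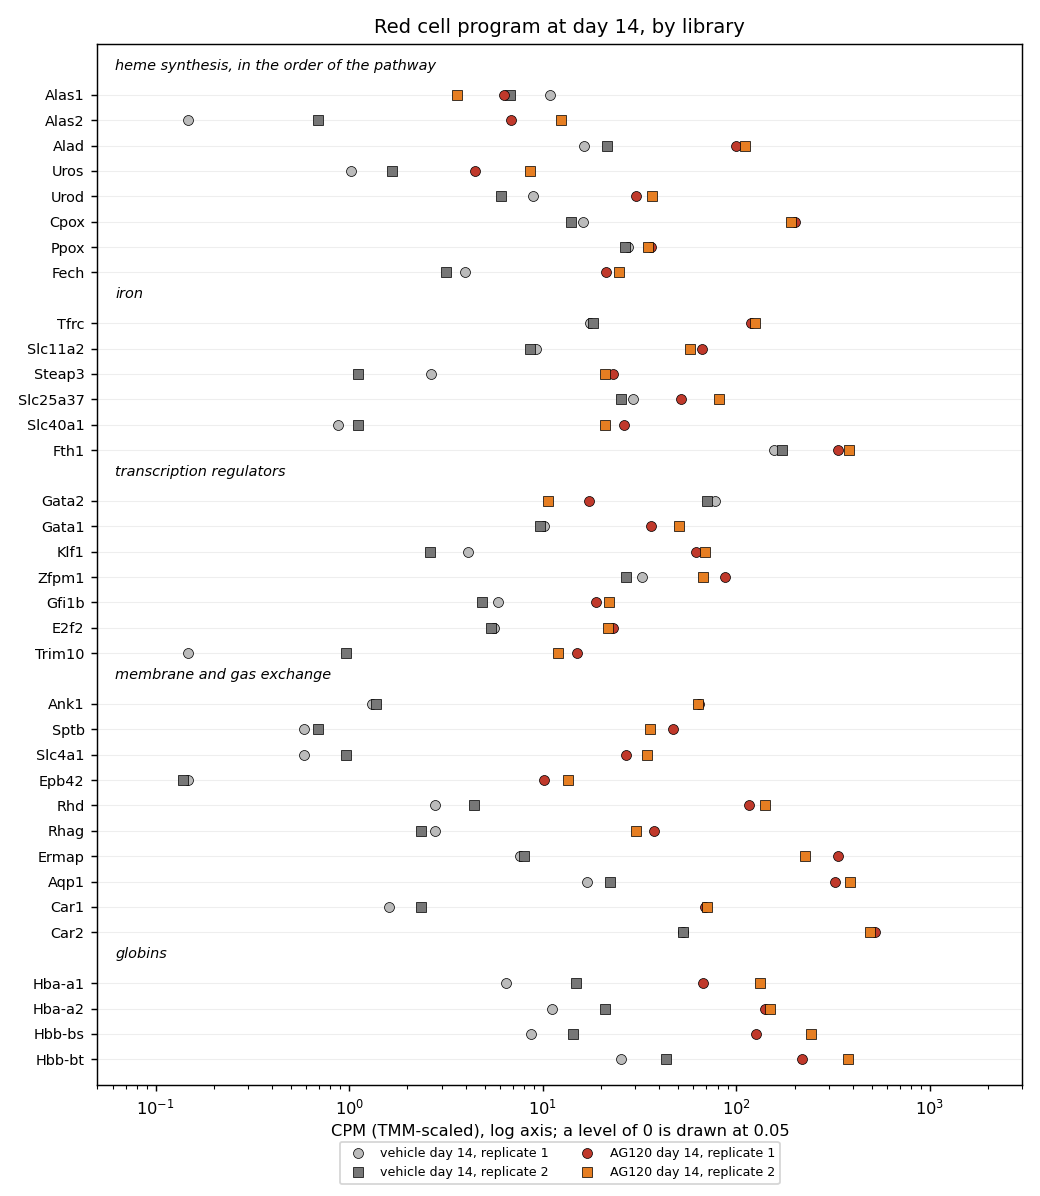
CPM of red cell genes on a log axis, 1 row per gene, with grey points for the 2 vehicle libraries and red and orange points for the 2 AG120 libraries at day 14. In every row but Alas1 and Gata2 both AG120 points lie to the right of both vehicle points; Cpox goes from 16.1 and 13.96 CPM to 201 and 191 CPM and Gata2 goes the other way.

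Promoter windows of some of these genes are shown because GATA1 binds the GATA letters searched, and several of the genes that rose carry them close to the start. Each window shown holds a match, so the set does not give the share among the genes that rose. The windows are the 250 bases before the start of transcription from RefSeq on GRCm38, the assembly of mm10, written 5′ to 3′ on the gene's own strand. Capitals mark the GATA matches searched on both strands: AGATAA and AGATAG, and with a leading T in place of A, TGATAA and TGATAG.
Ermap, chr4:119189996-119190245, minus strand: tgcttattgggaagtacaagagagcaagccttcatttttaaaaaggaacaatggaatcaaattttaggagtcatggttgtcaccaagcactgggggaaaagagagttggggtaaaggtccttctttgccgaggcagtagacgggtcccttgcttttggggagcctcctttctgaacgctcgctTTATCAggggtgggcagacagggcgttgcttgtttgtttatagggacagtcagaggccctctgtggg
Rhd, chr4:134864286-134864535, plus strand: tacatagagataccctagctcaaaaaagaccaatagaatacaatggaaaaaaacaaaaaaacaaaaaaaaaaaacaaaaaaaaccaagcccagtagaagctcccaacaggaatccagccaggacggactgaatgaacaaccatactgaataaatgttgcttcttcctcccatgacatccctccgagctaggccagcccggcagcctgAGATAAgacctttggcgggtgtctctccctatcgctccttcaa
Klf1, chr8:84901732-84901981, plus strand: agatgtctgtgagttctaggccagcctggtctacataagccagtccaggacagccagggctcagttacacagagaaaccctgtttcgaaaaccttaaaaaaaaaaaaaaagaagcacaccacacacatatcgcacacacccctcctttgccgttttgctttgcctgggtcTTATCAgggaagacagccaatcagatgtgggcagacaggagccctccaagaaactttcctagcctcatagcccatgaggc
Cpox, chr16:58669958-58670207, plus strand: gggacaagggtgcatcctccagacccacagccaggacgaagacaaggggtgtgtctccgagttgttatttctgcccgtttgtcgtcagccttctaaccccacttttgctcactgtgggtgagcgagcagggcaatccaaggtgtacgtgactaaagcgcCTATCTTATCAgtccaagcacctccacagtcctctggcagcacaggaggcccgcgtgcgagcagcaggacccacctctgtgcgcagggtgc
Epb42, chr2:121036878-121037127, minus strand: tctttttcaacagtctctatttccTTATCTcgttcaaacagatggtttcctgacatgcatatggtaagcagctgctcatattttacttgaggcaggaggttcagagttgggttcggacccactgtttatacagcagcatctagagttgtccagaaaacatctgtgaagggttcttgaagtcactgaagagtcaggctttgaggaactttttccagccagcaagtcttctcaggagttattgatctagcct
The match lies 67 bases before the start in Ermap, 43 in Rhd, 80 in Klf1 and 226 in Epb42, and Cpox has a match at 91 that overlaps 1 at 86.

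A match is a description of letters, and it was not rare. Of the 11991 gene symbols tested, 8649 had at least 1 window in the table, 10988 windows in all, and 17.1% of these windows held a GATA match, against 26.5% of the 32851 windows of all genes. The share was 16.9% of the windows of all genes that rose and 17.7% of those of all that fell, and 18.4% and 18% for changes over 2-fold. Among genes that rose over 8-fold it was 31.2% of 160 windows, and among those that fell over 8-fold 21.7% of 423. By list it was 45% of 20 windows for red cell membrane, 25% of 24 for heme and 24.2% of 33 for erythroid regulators. For leukocyte adhesion it was 29.2% of 24, for MYC targets 7.14% of 42 and for NF-κB 12.5% of 24. The KLF letters CCNCNCCC (both strands) were in 62.5% of the tested windows and in 53.1% of those of genes that rose over 8-fold. The PU.1 letters GAGGAAGT were in 2.66% of the tested windows, 1.25% of those that rose over 8-fold and 4.73% of those that fell over 8-fold. No window among the 5 shown held the KLF or PU.1 letters, and the shares were not tested against each other.

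Stem and leukemia stem cell genes moved down: 17 of 27 fell and 3 rose (median log2FC -1.96). Beside Cd34 and Sox4, Angpt1, a niche ligand made by progenitors, had 253 and 288 CPM in vehicle and 13.4 and 14.8 CPM in AG120 (log2FC -4.25 ± 0.65, adjusted p = 5.87e-04). Meis1, the homeobox partner of HOXA9, fell from 133 and 141 to 6.87 and 8.21 CPM (log2FC -4.17 ± 0.60, adjusted p = 2.97e-04). Erg, an ETS factor of stem cells, had 125 and 106 counts in vehicle and 1 and 2 counts in AG120 (adjusted p = 3.00e-05), and its relative Fli1 fell from 27.4 and 36.9 to 6.27 and 3.603 CPM (log2FC -2.75 ± 0.25, adjusted p = 3.63e-07). Runx1 fell less, from 83.2 and 77.5 to 22.1 and 23.8 CPM (log2FC -1.80 ± 0.26, adjusted p = 7.16e-05). Myb, needed for progenitor growth, had 139 and 119.6 CPM in vehicle and 86.3 and 73.1 CPM in AG120 (log2FC -0.70 ± 0.15, adjusted p = 0.00157), the smallest of the falls in this list.

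Those that rose in the list were Eng, the TGF-β coreceptor endoglin of stem cells and early erythroblasts (log2FC 1.27 ± 0.28, adjusted p = 0.00277), Ctnnal1, an α-catenin relative (log2FC 1.52 ± 0.54, adjusted p = 0.0361), and Mllt3, a transcription elongation cofactor (adjusted p = 0.00119), which had 1 and 2 counts in vehicle and 10 and 18 counts in AG120. For Ctnnal1 the adjusted p was 0.183 without AG120 replicate 1, 0.0590 without AG120 replicate 2, 0.138 without vehicle replicate 1 and 0.117 without vehicle replicate 2.

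Myeloid transcription factors showed 8 falls and 1 rise among 24 (median log2FC -1.36). Spi1, which encodes PU.1, had 39.8 and 41.6 CPM in vehicle and 3.58 and 4.60 CPM in AG120 (log2FC -3.284 ± 0.32, adjusted p = 9.55e-07). Cebpa had 37.2 and 41.6 CPM in vehicle and 3.88 and 7.61 CPM in AG120 (log2FC -2.72 ± 0.34, adjusted p = 2.28e-05). Both were lower in each AG120 library than in each vehicle library. Cbfb, the partner of RUNX1, fell from 44.7 and 53.2 to 6.27 and 8.01 CPM (log2FC -2.75 ± 0.18, adjusted p = 1.61e-08). Fitted on the day 14 groups alone, 16 members of this list fell.

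Receptors for myeloid growth factors fell too, 12 of 19 with 1 higher (median log2FC -2.02, or -1.75 with a member at 0 in a whole group set to its bound). The number that fell was 10, 7, 7 and 9 without AG120 1, AG120 2, vehicle 1 and vehicle 2 in turn. Csf2rb, the β chain shared by the GM-CSF, IL-3 and IL-5 receptors, had 54.8 and 56.3 CPM in vehicle and 5.97 and 5.80 CPM in AG120 (log2FC -3.24 ± 0.65, adjusted p = 0.00305). Csf3r, the G-CSF receptor, had 19.2 and 21.7 CPM in vehicle and 2.39 and 1.80 CPM in AG120 (log2FC -3.31 ± 0.32, adjusted p = 6.63e-07). Il1r1, the IL-1 receptor, had 11.9 and 8.98 CPM in vehicle and 0.597 and 0.400 CPM in AG120 (log2FC -4.38 ± 0.75, adjusted p = 4.44e-04). The member that rose was Ifngr1, an interferon γ receptor chain, with a log2 fold change of 0.82; its adjusted p was 0.0502 without AG120 replicate 1 and 0.0630 without vehicle replicate 2.

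Of the primary granule and promyelocyte genes, 11 of 20 fell and none rose (median log2FC -2.53). Ms4a3, a promyelocyte membrane protein, had 74.7 and 68.0 CPM in vehicle and 4.18 and 4.20 CPM in AG120 (log2FC -4.08 ± 0.46, adjusted p = 1.64e-05). Plac8 had 331 and 304 CPM in vehicle and 24.2 and 31.6 CPM in AG120 (log2FC -3.50 ± 0.40, adjusted p = 2.95e-05). Mpo, myeloperoxidase, fell from 802 and 713 to 134 and 127 CPM (log2FC -2.54 ± 0.67, adjusted p = 0.0149), with an adjusted p of 0.0789 without AG120 replicate 1, 0.0903 without AG120 replicate 2 and 0.0504 without vehicle replicate 1. With DESeq2 17 of the 20 primary granule genes fell, and the same number of the 19 tested fell in a fit on the day 14 groups alone.

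Secondary granule and neutrophil genes gave 2 falls and no rise among 21 (median log2FC 0.29). S100a8 had 510.4 and 634 CPM in vehicle and 608 and 867 CPM in AG120 and Ngp had 108 and 126 CPM in vehicle and 263 and 242 CPM in AG120, neither past the test (adjusted p = 0.616 and 0.488). The 2 that fell were Cxcr2, a chemokine receptor (log2FC -2.48 ± 0.47, adjusted p = 0.00120), and Padi4, the histone citrullinating enzyme (log2FC -2.73 ± 0.36, adjusted p = 1.95e-05). S100a8 and Ngp are among the 5 markers of the neutrophil sum given above, which was the higher in AG120.

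Monocyte and macrophage genes went both ways, 3 up and 6 down of 20 (median log2FC 0.06), or 15% and 30% beside 16.8% and 17.9% of all genes. The number that fell was 4, 3, 3 and 3 without AG120 1, AG120 2, vehicle 1 and vehicle 2 in turn. Tyrobp, the adaptor DAP12, had 25.8 and 31.8 CPM in vehicle and 0.895 and 2.20 CPM in AG120 (log2FC -4.10 ± 0.44, adjusted p = 4.59e-06), and Cd68 fell from 13.2 and 12.02 to 1.49 and 1.601 CPM (log2FC -3.003 ± 0.43, adjusted p = 4.37e-05). C1qa, the complement chain that macrophages make, rose from 0.879 and 1.11 to 7.76 and 13.8 CPM (log2FC 3.43 ± 0.69, adjusted p = 0.00113). Mast cell, basophil and eosinophil genes fell in 10 of 15 (median log2FC -2.14, or -1.86 with a member at 0 in a whole group set to its bound). Cpa3, mast cell carboxypeptidase, had 60.8 and 64.3 CPM in vehicle and 1.49 and 4.40 CPM in AG120 (log2FC -4.29 ± 0.61, adjusted p = 2.21e-04). Il5ra, the IL-5 receptor, had 31 and 23 counts in vehicle and 0 and 0 counts in AG120, at least 5.16-fold lower against the limit of 3 counts per library. Among these genes Il1rl1, the IL-33 receptor, rose instead (log2FC 2.33 ± 0.35, adjusted p = 8.51e-05).

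Of the megakaryocyte and platelet genes 8 of 21 fell and 1 rose (median log2FC -1.13). Mef2c, a factor of lymphoid and megakaryocyte progenitors, had 49.96 and 52.8 CPM in vehicle and 4.48 and 3.80 CPM in AG120 (log2FC -3.64 ± 0.20, adjusted p = 4.18e-09). Nbeal2, needed for α granules, had 11.9 and 13.1 CPM in vehicle and 1.49 and 2.002 CPM in AG120 (log2FC -2.79 ± 0.39, adjusted p = 3.64e-05). The member that rose, Vwf, had 0.147 and 0.553 CPM in vehicle and 3.283 and 3.002 CPM in AG120, and its adjusted p of 0.0128 became 0.0501 without AG120 replicate 1, 0.0543 without AG120 replicate 2 and 0.114 without vehicle replicate 1.

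**Figure D3:**
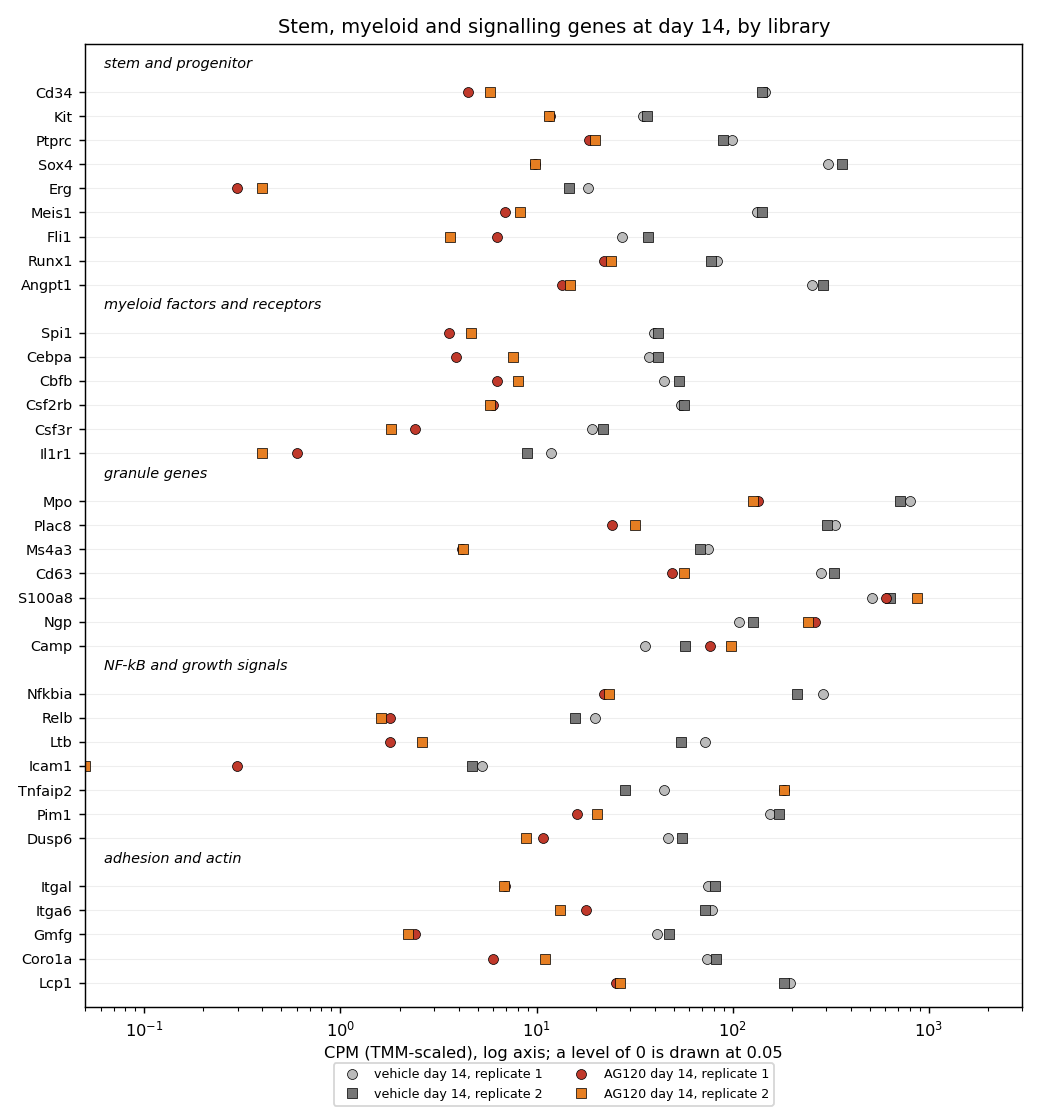
CPM of stem, myeloid, granule, NF-κB and adhesion genes on a log axis, drawn as for the red cell genes. Cd34, Sox4, Spi1 and Mpo lie far lower in both AG120 libraries, Tnfaip2 lies higher, and the late granule genes S100a8, Ngp and Camp have an AG120 library at or above the vehicle ones; Icam1 is at 0 in AG120 replicate 2.

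Adhesion and movement genes of leukocytes fell in 18 of 29 with 3 higher (median log2FC -1.63). Itgal, the α chain of LFA-1, had 74.7 and 81.0 CPM in vehicle and 6.87 and 6.81 CPM in AG120 (log2FC -3.51 ± 0.23, adjusted p = 1.61e-08), and its ligand Icam1 had 36 and 34 counts in vehicle and 1 and 0 counts in AG120 (adjusted p = 5.62e-05). Coro1a, an actin regulator, fell from 73.7 and 82.6 to 5.97 and 11.01 CPM (log2FC -3.15 ± 0.22, adjusted p = 2.00e-08). By contrast Itgb1, the β1 integrin chain of progenitors and erythroblasts, rose from 123 and 120.7 to 189 and 192 CPM (log2FC 0.65 ± 0.12, adjusted p = 5.30e-04).

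None of the 15 S100 and annexin genes rose and 9 fell (median log2FC -1.54), among them S100a11 (log2FC -2.84 ± 0.29, adjusted p = 1.28e-06), S100a4 (log2FC -2.74 ± 0.60, adjusted p = 0.00447) and Anxa5 (log2FC -2.38 ± 0.32, adjusted p = 2.54e-05). Enzymes that build cell surface sugars gave 8 falls and 2 rises of 19 (median log2FC -0.87). The sialyltransferases St3gal6 and St3gal5, which cap lactose and galactose ends, were the 2 that rose, St3gal6 from 0.733 and 0.829 to 10.7 and 10.8 CPM (log2FC 3.75 ± 0.87, adjusted p = 0.00414) and St3gal5 from 10.99 and 7.33 to 65.1 and 59.8 CPM (log2FC 2.77 ± 0.30, adjusted p = 2.98e-06). Fut7, which completes the selectin ligand sialyl Lewis x, fell from 58.0 and 60.7 to 5.67 and 7.01 CPM (log2FC -3.20 ± 0.34, adjusted p = 3.47e-06). Gcnt2, the I-branching enzyme, went from 38.7 and 46.0 to 2.39 and 2.60 CPM (log2FC -4.07 ± 0.31, adjusted p = 7.13e-08).

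Of the NF-κB factors and targets 17 of 25 fell and 1 rose (median log2FC -2.43, or -2.34 with a member at 0 in a whole group set to its bound). Nfkbia, the feedback inhibitor IκBα, had 289 and 214 CPM in vehicle and 22.1 and 23.4 CPM in AG120 (log2FC -3.46 ± 0.50, adjusted p = 2.96e-04). Relb, a subunit of the noncanonical arm, had 19.9 and 15.6 CPM in vehicle and 1.79 and 1.601 CPM in AG120 (log2FC -3.39 ± 0.54, adjusted p = 2.16e-04). Ltb, lymphotoxin β, had 71.9 and 54.3 CPM in vehicle and 1.79 and 2.60 CPM in AG120 (log2FC -4.79 ± 0.37, adjusted p = 1.27e-07). Each of these was lower in both AG120 libraries with no overlap. The gene that rose was Tnfaip2, which had 44.4 and 28.2 CPM in vehicle and 182 and 183 CPM in AG120 (log2FC 2.33 ± 0.23, adjusted p = 7.42e-07).

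In the RAS and MAPK feedback list 9 of 27 genes fell and 2 rose (median log2FC -0.43), with falls of Dusp6, the ERK phosphatase, from 47.0 and 55.1 to 10.7 and 8.81 CPM (log2FC -2.40 ± 0.34, adjusted p = 9.56e-05), and of Etv4, an ETS target of ERK (log2FC -3.07 ± 0.69, adjusted p = 0.00260). Hras rose (log2FC 1.22 ± 0.25, adjusted p = 0.00118). Of 19 immediate early genes 5 fell (26.3%) and none rose (median log2FC -1.44), beside 17.9% and 16.8% of all genes. Fosl2 had 7.91 and 7.19 CPM in vehicle and 2.39 and 1.601 CPM in AG120 (log2FC -1.95 ± 0.41, adjusted p = 0.00153). With any day 14 library left out, fewer immediate early genes fell, and fewer fell over all genes too.

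TGF-β receptors and SMADs fell in 10 of 17 genes and rose in 1, which was Eng (median log2FC -1.27). Tgfbr2, the type II receptor, had 8.50 and 7.88 CPM in vehicle and 1.19 and 1.001 CPM in AG120 (log2FC -2.90 ± 0.61, adjusted p = 0.00160). Tgif1, a SMAD corepressor, had 7.62 and 7.60 CPM in vehicle and 1.79 and 1.601 CPM in AG120 (log2FC -2.165 ± 0.42, adjusted p = 7.28e-04). Interferon response genes fell in 10 and rose in 4 of 36 (median log2FC -0.24), or 27.8% and 11.1% beside 17.9% and 16.8% of all genes. The falls included Irf1, from 29.4 and 33.6 to 8.36 and 5.60 CPM (log2FC -2.21 ± 0.31, adjusted p = 5.02e-05), and Psmb8, an immunoproteasome subunit (log2FC -2.35 ± 0.21, adjusted p = 3.35e-07). The rises numbered 3, 0, 3 and 0 without AG120 1, AG120 2, vehicle 1 and vehicle 2 in turn.

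Targets of p53 gave 5 rises and 6 falls of 24 (median log2FC -0.53), 20.8% and 25% beside 16.8% and 17.9% of all genes. The number that rose was 3, 5, 4 and 4 without AG120 1, AG120 2, vehicle 1 and vehicle 2 in turn. Phlda3, an AKT inhibitor, rose from 1.76 and 0.829 to 7.46 and 8.01 CPM (log2FC 2.58 ± 0.50, adjusted p = 8.15e-04), and Ccng1, cyclin G1, also rose (log2FC 1.05 ± 0.27, adjusted p = 0.00572). Cdkn1a, the CDK inhibitor p21, fell from 12.5 and 17.6 to 2.39 and 2.80 CPM (log2FC -2.51 ± 0.34, adjusted p = 2.45e-05). In the BCL2 family 2 of 15 rose and 3 fell (median log2FC -0.27). Bcl2 itself, the survival protein, had 24.6 and 23.2 CPM in vehicle and 4.18 and 3.002 CPM in AG120 (log2FC -2.76 ± 0.28, adjusted p = 9.76e-07).

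Proliferation genes were higher by modest amounts. In DNA replication 18 of 42 genes rose and 1 fell (median log2FC 0.51), and in mitosis 17 of 42 rose and none fell (median log2FC 0.50). Cdc6, an origin licensing factor, had 32.4 and 26.3 CPM in vehicle and 82.4 and 86.3 CPM in AG120 (log2FC 1.53 ± 0.22, adjusted p = 6.05e-05). Rrm1, the ribonucleotide reductase large subunit, had 76.8 and 70.9 CPM in vehicle and 179 and 155 CPM in AG120 (log2FC 1.17 ± 0.18, adjusted p = 8.45e-05). Among mitotic genes Plk1 had 53.03 and 62.1 CPM in vehicle and 109.5 and 119 CPM in AG120 (log2FC 0.99 ± 0.21, adjusted p = 0.00190) and Anln, anillin of the cleavage furrow, 13.8 and 11.2 CPM in vehicle and 36.1 and 25.6 CPM in AG120 (log2FC 1.29 ± 0.21, adjusted p = 1.86e-04). The rises were 42.9% of the replication genes and 40.5% of the mitosis genes, beside 16.8% of all genes. With any day 14 library left out, fewer genes of both lists rose, and fewer rose over all genes too.

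Of the G1 regulators 6 of 22 rose and 3 fell (median log2FC 0.18), or 27.3% and 13.6% beside 16.8% and 17.9% of all genes. Ccne1, cyclin E1, rose from 7.47 and 10.8 to 39.7 and 47.6 CPM (log2FC 2.26 ± 0.30, adjusted p = 2.39e-05) and E2f4, an E2F of erythroid cells, from 6.89 and 7.74 to 18.8 and 26.6 CPM (log2FC 1.64 ± 0.26, adjusted p = 1.36e-04). Cdk6 had 385 and 414 CPM in vehicle and 193 and 215 CPM in AG120 (log2FC -0.97 ± 0.16, adjusted p = 1.57e-04). No CDK inhibitor rose and 3 of 6 fell (median log2FC -0.56): Cdkn1a, Cdkn2d (log2FC -2.02 ± 0.23, adjusted p = 4.49e-06) and Cdkn1b, which encodes p27 (log2FC -0.89 ± 0.20, adjusted p = 0.00238).

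MYC targets and ribosome biogenesis genes rose in 30 of 40 and fell in none (median log2FC 0.80). Odc1, ornithine decarboxylase of polyamine synthesis, had 69.0 and 76.2 CPM in vehicle and 173 and 251 CPM in AG120 (log2FC 1.55 ± 0.26, adjusted p = 3.34e-04). Hspd1, the mitochondrial chaperonin, had 414 and 429 CPM in vehicle and 982 and 1221 CPM in AG120 (log2FC 1.39 ± 0.28, adjusted p = 0.00160). Tfrc, given above, is on this list too. Mrto4, a ribosome assembly factor, had 67.1 and 69.7 CPM in vehicle and 184 and 172 CPM in AG120 (log2FC 1.38 ± 0.23, adjusted p = 2.75e-04). The count that rose was 26, 19, 19 and 22 without AG120 1, AG120 2, vehicle 1 and vehicle 2 in turn. Myc itself had 17.1 and 16.3 CPM in vehicle and 15.5 and 11.4 CPM in AG120, and its log2 fold change of -0.33 did not pass (adjusted p = 0.383). Cytosolic ribosomal protein genes gave 1 rise and 2 falls among 55 (median log2FC 0.01).

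**Figure D4:**
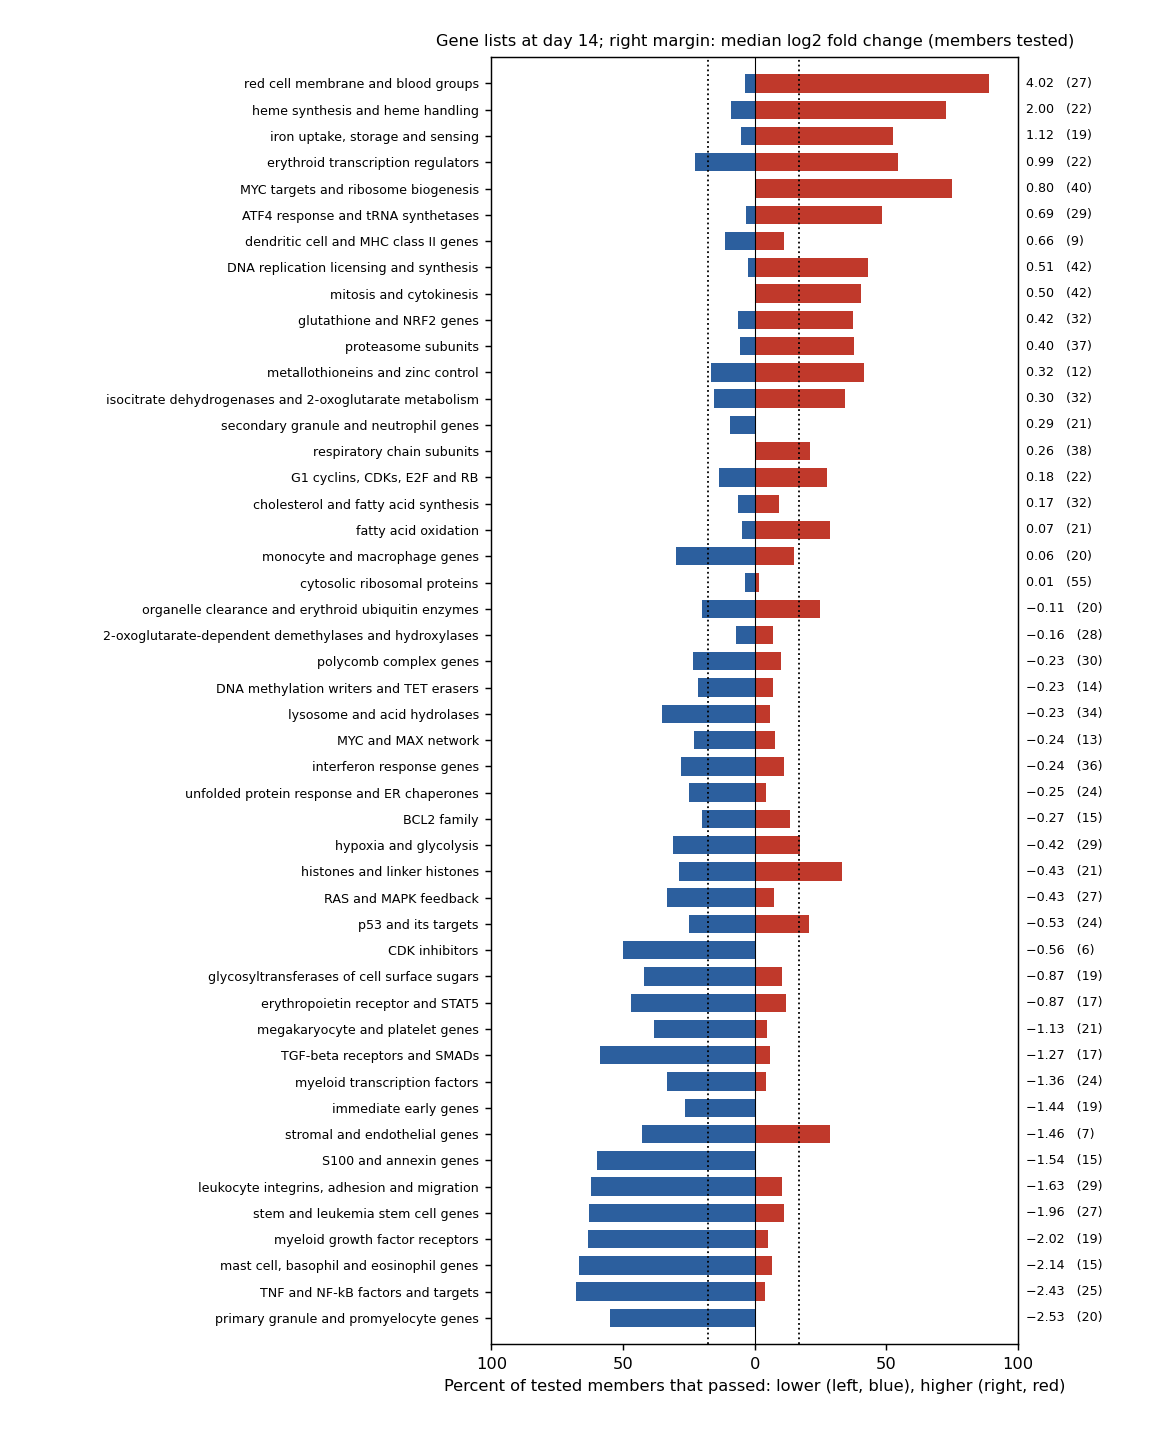
For each gene list with 5 or more members tested, bars give the percent of its tested members that rose (red, right) or fell (blue, left) at day 14, with the median log2 fold change and the number tested at the right margin; dotted lines mark all genes, 16.8% and 17.9%. Of the lists drawn, red cell membrane, heme and MYC targets reach farthest to the right, and NF-κB, mast cell, growth factor receptor and stem cell genes farthest to the left.

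Around the target of the drug, genes of isocitrate and 2-oxoglutarate metabolism rose in 11 and fell in 5 of 32 (median log2FC 0.30). Dlst, a subunit of 2-oxoglutarate dehydrogenase, had 39.3 and 42.7 CPM in vehicle and 79.1 and 79.5 CPM in AG120 (log2FC 0.95 ± 0.14, adjusted p = 7.96e-05). Aco1, the cytosolic aconitase that also serves as an iron sensor, rose from 5.86 and 7.88 to 20.3 and 14.8 CPM (log2FC 1.34 ± 0.31, adjusted p = 0.00328). Those that fell included Idh1 and Idh2, given above, and Glud1, which makes 2-oxoglutarate from glutamate, from 139 and 158 to 46.6 and 53.8 CPM (log2FC -1.56 ± 0.16, adjusted p = 1.58e-06). The rises numbered 6, 7, 4 and 6 without AG120 1, AG120 2, vehicle 1 and vehicle 2 in turn.

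The enzymes that use 2-oxoglutarate to demethylate or hydroxylate gave 2 rises and 2 falls of 28 (median log2FC -0.16), 7.14% each way beside 16.8% and 17.9% of all genes. Egln3, a prolyl hydroxylase of HIF, had 27.5 and 24.6 CPM in vehicle and 1.49 and 2.20 CPM in AG120 (log2FC -3.76 ± 0.68, adjusted p = 0.00114). Kdm2a, a histone H3 demethylase, had 75.3 and 77.9 CPM in vehicle and 46.3 and 45.03 CPM in AG120 (log2FC -0.75 ± 0.14, adjusted p = 5.81e-04). Among DNA methylation genes 3 of 14 fell and 1 rose (median log2FC -0.23): Dnmt3b fell from 33.3 and 41.0 to 8.06 and 11.2 CPM (log2FC -1.92 ± 0.35, adjusted p = 7.69e-04) beside Dnmt3a, and Mbd2, a methyl-CpG binding protein, rose (log2FC 1.15 ± 0.17, adjusted p = 6.04e-05). Tet2, a dioxygenase that 2-hydroxyglutarate inhibits, had 19.9 and 17.4 CPM in vehicle and 11.3 and 7.41 CPM in AG120 (log2FC -1.02 ± 0.22, adjusted p = 0.00183), with an adjusted p of 0.0543 without AG120 replicate 2. Polycomb genes gave 3 rises and 7 falls of 30 (median log2FC -0.23), and 2, 4, 5 and 3 fell without AG120 1, AG120 2, vehicle 1 and vehicle 2 in turn; Pcgf5, a variant complex subunit, was among the falls (log2FC -1.05 ± 0.19, adjusted p = 5.28e-04).

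Redox genes leaned upward, 12 of 32 higher and 2 lower (median log2FC 0.42). Gstm5, a glutathione transferase, had 0.147 and 0.553 CPM in vehicle and 22.4 and 20.8 CPM in AG120 (log2FC 5.85 ± 0.64, adjusted p = 3.06e-06). Gclm, the modifier of glutathione synthesis, had 27.0 and 32.1 CPM in vehicle and 109 and 132 CPM in AG120 (log2FC 2.03 ± 0.17, adjusted p = 1.43e-07). Mgst3, a microsomal glutathione transferase of red cells, rose from 1.47 and 2.07 to 9.25 and 9.21 CPM (log2FC 2.37 ± 0.47, adjusted p = 9.66e-04). Mt2, metallothionein 2, had 15.5 and 20.6 CPM in vehicle and 269.8 and 347 CPM in AG120 (log2FC 4.09 ± 0.78, adjusted p = 0.00276). Slc39a8, a zinc and manganese importer, had 1.76 and 1.38 CPM in vehicle and 19.1 and 17.0 CPM in AG120 (log2FC 3.51 ± 0.44, adjusted p = 1.29e-05). Of 12 metallothionein and zinc genes 5 rose and 2 fell (median log2FC 0.32), and 3, 3, 2 and 3 rose without AG120 1, AG120 2, vehicle 1 and vehicle 2 in turn.

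In glycolysis, Pklr, the pyruvate kinase of red cells and liver, had 1.76 and 1.66 CPM in vehicle and 46.0 and 53.8 CPM in AG120 (log2FC 4.86 ± 0.53, adjusted p = 1.29e-05), while Pkm, the form of most other cells, had 79.3 and 94.5 CPM in vehicle and 11.9 and 13.01 CPM in AG120 (log2FC -2.79 ± 0.26, adjusted p = 6.50e-07). Hexokinase 1, the red cell form, rose (Hk1, log2FC 0.99 ± 0.14, adjusted p = 4.64e-05), and Hk2 fell from 41.6 and 41.2 to 8.06 and 11.6 CPM (log2FC -2.05 ± 0.28, adjusted p = 3.95e-05). Pfkm, a phosphofructokinase, rose (log2FC 2.26 ± 0.29, adjusted p = 1.40e-05), and Pfkfb3, which makes its activator, fell (log2FC -2.29 ± 0.25, adjusted p = 3.19e-06). Of the hypoxia and glycolysis list 17.2% rose and 31% fell, beside 16.8% and 17.9% of all genes. Over the list 5 of 29 rose and 9 fell (median log2FC -0.42), with 5, 8, 7 and 7 falls without AG120 1, AG120 2, vehicle 1 and vehicle 2 in turn.

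Genes of the ATF4 response and tRNA charging rose in 14 of 29 and fell in 1 (median log2FC 0.69), the tRNA synthetases Cars (log2FC 1.40 ± 0.31, adjusted p = 0.00249) and Gars (log2FC 1.17 ± 0.18, adjusted p = 8.93e-05) among them. The number that rose was 10, 10, 10 and 9 without AG120 1, AG120 2, vehicle 1 and vehicle 2 in turn. Proteasome subunits rose in 14 of 37 (median log2FC 0.40), with Psmd7 from 105 and 97.7 to 201 and 233 CPM (log2FC 1.10 ± 0.17, adjusted p = 1.16e-04), and here 10, 7, 9 and 6 rose in the same order. The 2 proteasome genes that fell were the interferon-induced Psmb8 and Psmb9 (log2FC -1.55 ± 0.20, adjusted p = 1.39e-05). The unfolded protein response gave 1 rise and 6 falls of 24 (median log2FC -0.25), 4.17% and 25% beside 16.8% and 17.9% of all genes. With any day 14 library left out, fewer genes of this list fell, and fewer fell over all genes too. Ern1, the stress sensor IRE1α, was lower (log2FC -1.81 ± 0.32, adjusted p = 3.27e-04).

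Respiratory chain genes rose in 8 of 38 and fell in none (median log2FC 0.26), 21.1% beside the 16.8% of all genes that rose. The number that rose was 8, 1, 2 and 4 without AG120 1, AG120 2, vehicle 1 and vehicle 2 in turn. Lysosomal genes fell in 12 and rose in 2 of 34 (median log2FC -0.23), with Laptm5, a hematopoietic lysosomal membrane protein, from 301 and 363 to 39.1 and 50.6 CPM (log2FC -2.88 ± 0.18, adjusted p = 8.69e-09), and Man2b1, lysosomal mannosidase, lower (log2FC -2.08 ± 0.18, adjusted p = 2.64e-07). Fatty acid oxidation gave 6 rises and 1 fall of 21 (median log2FC 0.07), and Acaa2, the mitochondrial thiolase, was among the rises (log2FC 1.45 ± 0.24, adjusted p = 1.69e-04). The number that rose was 3, 3, 4 and 2 in the order used above. Cholesterol and fatty acid synthesis genes showed 3 rises and 2 falls of 32 (median log2FC 0.17).

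Genes of organelle clearance, which maturing erythroblasts use to shed mitochondria and other organelles, rose in 5 and fell in 4 of 20 (median log2FC -0.11). These are 25% and 20%, near the 16.8% and 17.9% of all genes. The number that rose was 4, 3, 3 and 3, and 2, 3, 2 and 2 fell, without AG120 1, AG120 2, vehicle 1 and vehicle 2 in turn. Wipi1, an autophagy protein (log2FC 1.32 ± 0.28, adjusted p = 0.00158), and Ranbp10, a binding partner of tubulin (log2FC 1.13 ± 0.25, adjusted p = 0.00189), rose. Xpo7, a nuclear exporter of maturing erythroblasts, fell from 52.6 and 57.4 to 12.5 and 15.8 CPM (log2FC -1.94 ± 0.16, adjusted p = 1.16e-07). Histone genes gave 7 rises and 6 falls of 21 (median log2FC -0.43, or -0.27 with a member at 0 in a whole group set to its bound), with 2, 4, 6 and 2 rises and 2, 4, 3 and 3 falls in the same order. Most histone RNAs are near-identical copies without a poly(A) tail, so their 3′ end counts are uncertain; H2afy, which encodes the polyadenylated variant macroH2A1, fell from 145 and 155 to 37.3 and 47.4 CPM (log2FC -1.82 ± 0.20, adjusted p = 2.61e-06).

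The last comparison asked whether the effect of AG120 at day 14 differed from that at day 5. At day 5, 2410 genes had risen (20.1%) and 2320 had fallen (19.3%), 39.4% in all. The difference between the effects passed for 112 of 11994 genes (0.934%), with 25 above (0.208%) and 87 below (0.725%). The day 5 and day 14 groups are separate mice, so this is a difference between cohorts at 2 times and not a course within a mouse. The count depended on each library: it was 13 and 15 without AG120 replicates 1 and 2 of day 14, 17 and 21 without vehicle replicates 1 and 2 of day 14, 35, 50 and 47 without AG120 replicates 1, 2 and 3 of day 5, and 61, 42 and 34 without vehicle replicates 1, 2 and 3 of day 5.

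The 5 genes that passed with each of these 10 libraries left out in turn were Muc13, Ptpn18, Cd63, Cbfb and St3gal2, picked by that count after the values were seen. Muc13, a membrane mucin of epithelia and hematopoietic progenitors (ENSMUSG00000022824, chromosome 16, 33794037 to 33819934, plus strand), had 53.1, 45.6 and 38.5 CPM in vehicle and 53.3, 49.2 and 48.4 CPM in AG120 at day 5, where the groups overlapped. At day 14 it had 62.7 and 52.8 CPM in vehicle and 7.76 and 6.81 CPM in AG120, far apart (difference -3.13 ± 0.29, adjusted p = 6.01e-05). Ptpn18 had a log2 fold change of -1.74 at day 5 and -3.27 at day 14 (difference -1.53 ± 0.20, adjusted p = 0.00286). Cd63, the tetraspanin of granule and lysosome membranes, went from -1.17 to -2.52 (difference -1.35 ± 0.18, adjusted p = 0.00286), and Cbfb from -1.11 to -2.75 (difference -1.64 ± 0.22, adjusted p = 0.00302). For these 4 genes the log2 fold change was lower at day 14 than at day 5; Muc13 was not under vehicle at day 5.

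St3gal2, a sialyltransferase, went the other way. Its level was 31.0, 30.9 and 27.5 CPM in vehicle and 7.31, 8.90 and 6.71 CPM in AG120 at day 5 and 21.8 and 25.7 CPM in vehicle and 21.8 and 20.4 CPM in AG120 at day 14, so that the groups stood apart at day 5 and nearly level at day 14 (difference 1.79 ± 0.25, adjusted p = 0.00445). Itgb3, the platelet and progenitor β3 integrin chain, had a log2 fold change of -2.39 at day 5 and -0.07 at day 14 (difference 2.32 ± 0.39, adjusted p = 0.0111), a difference that passed in 8 of the 10 runs with a library left out. Lyz2, lysozyme of myeloid cells, went from -3.62 to -0.63 (difference 2.98 ± 0.55, adjusted p = 0.0269), passing in 1 of the 10 such runs.

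The red cell lists had risen by day 5 already: 21 of 27 membrane genes and 15 of 22 heme genes rose then, with medians of 2.12 and 1.27, beside 24 and 16 at day 14 with medians of 4.02 and 2.002. Whether the lists differ between the times was not tested; in the gene by gene test the difference passed for none of the membrane genes. E2f2 went from a log2 fold change of 0.29 at day 5 to 2.03 at day 14 (difference 1.74 ± 0.31, adjusted p = 0.0157), and passed in 6 of the 10 runs. Fam210b, a mitochondrial protein of heme synthesis, went from 0.55 to 2.98 (difference 2.42 ± 0.47, adjusted p = 0.0243; 2 of the 10 runs). Klf1 stood at 4.17 at day 5 and 4.27 at day 14, Tfrc at 2.07 and 2.77, and Ermap at 5.51 and 5.16, and for none of them did the difference pass.

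Myc and Myb, which drive progenitor growth, rose at day 5 (adjusted p = 8.67e-05 and 0.00304); at day 14 Myc did not pass and Myb had fallen. Myc had 12.2, 7.07 and 9.68 CPM in vehicle and 21.03, 30.6 and 24.8 CPM in AG120 at day 5 against 17.1 and 16.3 CPM in vehicle and 15.5 and 11.4 CPM in AG120 at day 14 (difference -1.74 ± 0.35, adjusted p = 0.0272), passing in 2 of the 10 runs. Myb had a log2 fold change of 0.50 at day 5 and -0.70 at day 14 (difference -1.20 ± 0.19, adjusted p = 0.00664; 8 of the 10 runs). The stem cell list had 15 members lower at day 5 and 17 at day 14 (medians -1.23 and -1.96), and the NF-κB list 9 and 17 (medians -0.49 and -2.43). Whether these lists differ between the times was not tested. Gene by gene, the difference passed for 1 of 27 stem cell and 2 of 25 NF-κB genes. Of the genes given next, Pim1 differed between the times in vehicle as well as in AG120. Its mean was 87.7 CPM in vehicle and 35.3 CPM in AG120 at day 5, and 163 and 18.3 CPM at day 14. Nfkbia went from -0.26 to -3.46 (difference -3.20 ± 0.60, adjusted p = 0.0343; 0 of the 10 runs) and Pim1 from -1.31 to -3.15 (difference -1.83 ± 0.30, adjusted p = 0.00774; 8 of the 10 runs). Gmfg went from -2.32 to -4.26 (difference -1.95 ± 0.28, adjusted p = 0.00445; 9 of the 10 runs), and Tbc1d4, a RAB GTPase activating protein, from -0.01 to -2.35 (difference -2.34 ± 0.36, adjusted p = 0.00664; 9 of the 10 runs).

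**Figure D5:**
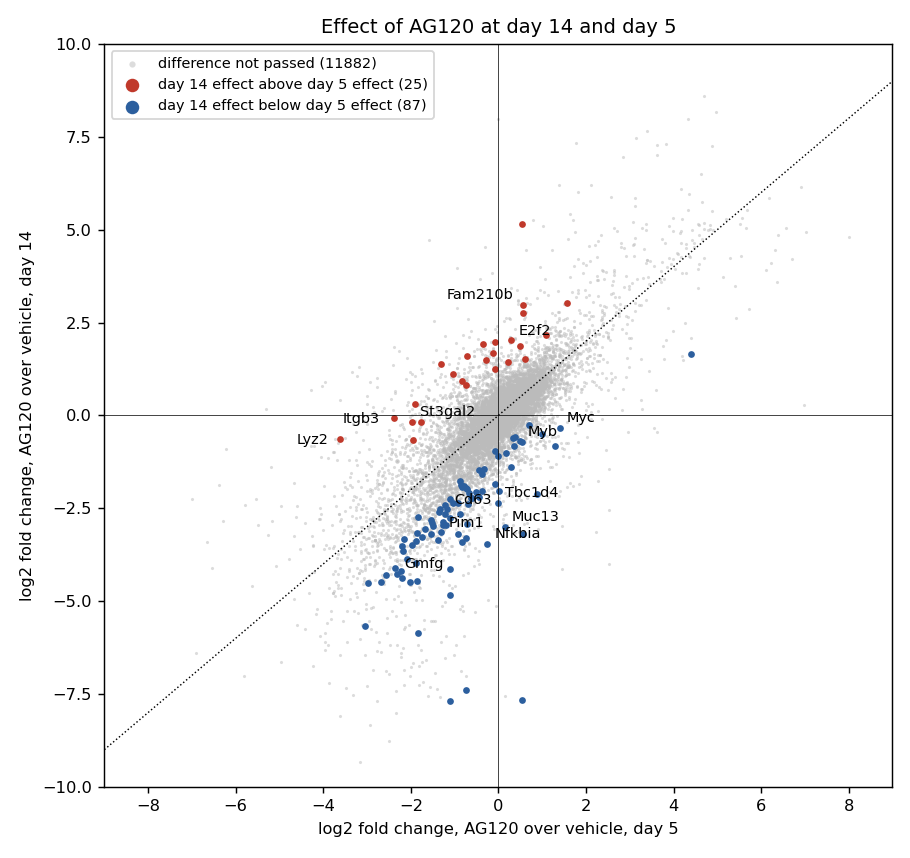
Log2 fold change of AG120 over vehicle at day 5 (x axis) and day 14 (y axis) for 11994 genes; the dotted line marks equal effects, grey points are genes whose difference did not pass, and the larger points those that did, 25 above the line in red and 87 below it in blue. E2f2 and Fam210b lie above the line, Myc, Myb, Muc13 and Nfkbia below it.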

How the data were processed

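RNA of sorted cKit+CD11b- I1DN progenitors was made into QuantSeq 3′ libraries, per the labels' protocols, and the authors deposited raw read counts per Ensembl gene for 14 libraries. Per the submitters' processing notes, HISAT2 2.1.0 and featureCounts (Subread 1.6.3) were used with mm10, after bcl2fastq 2.17.1.14 and cutadapt 1.14. The strand setting and the annotation release are not stated there. GENCODE M21 named 52489 of the 52636 identifiers. Counts at a gene's 3′ end do not depend on its length, so CPM compares a gene across libraries, and genes were not ranked against each other by level.

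Counts were tested as deposited with edgeR 4.0.16 (R 4.3.3; filterByExpr with a minimum count of 10, TMM scaling, robust quasi-likelihood fit, 5 groups, 9 residual degrees of freedom), so the spread is shared by all groups. A day 14 contrast and its difference from the day 5 contrast were tested, with Benjamini-Hochberg adjustment over 11994 genes. The 5 ribosomal RNA models stayed in the fit. The fit was tested on simulated data. Depth ranged from 1259982 to 2627684 counts outside ribosomal RNA in the day 14 libraries.

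The comparison, the 51 gene lists and the rule for named genes were chosen with earlier results of these data known. The rule names Idh1, Idh2, Dnmt3a, Nras, Kit, Itgam, Cd34 and Ptprc. It names the largest changes at a mean log2 CPM of at least 3 with groups that do not overlap. It also names the smallest adjusted p in each direction without these limits, up to 4 genes per list and direction, and the surest differences from day 5. Outside it, Alad, Alas1, Uros, Urod, Ppox, Fech and Fam210b were added from the heme pathway, and Camp, Cbfa2t3, Cd163, Coro1a, Dusp6, Hba-a1, Hbb-bs, Lyz2, Meis1, Mpo, Myc, Nfkbia, Ngp, Relb, Runx1, S100a8 and Zfpm1 for their roles, after their values were seen. A few genes that the rule names are not reported here. Alternatives were RLE scaling, no filter, DESeq2 1.42.0, limma-voom 3.58.1, a fit on the compared groups alone, no ribosomal RNA models, thinned libraries, a replicate block and each library left out. Promoter windows came from a RefSeq table for GRCm38.p6.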

Additional observations from a re-analysis of the deposited data

Results flagged for a closer look

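Among the genes named, these differed between the 2 times, in edgeR's quasi-likelihood test of the day 14 effect minus the day 5 effect (adjusted p under 0.05); values are differences on the log2 scale. In heme and red cell genes the difference was 2.42 for Fam210b and 1.74 for E2f2. Above the day 5 effect lay also St3gal2 (1.79), Itgb3 (2.32) and Lyz2 (2.98). Below it, Muc13 differed by -3.13 and Nfkbia by -3.20. Of the progenitor and myeloid factors, Myc differed by -1.74, Myb by -1.20, Cbfb by -1.64 and Mef2c by -1.46. The differences of signalling and trafficking genes were -1.83 for Pim1, -1.53 for Ptpn18, -2.34 for Tbc1d4 and -0.90 for Cdk6. Adhesion, granule and antigen processing genes gave -1.31 for Itgal, -1.95 for Gmfg, -1.35 for Cd63 and -1.30 for Psmb8. Xpo7, the nuclear exporter, differed by -1.11. With each of 10 libraries left out in turn, the difference passed in 0 of the 10 runs for Cdk6 and for Itgal, in 1 of the 10 for Psmb8, in 7 of the 10 for Mef2c and for Xpo7.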

How the results depend on the processing

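The 4159 genes called at day 14 ranged from 3541 (thinned libraries) to 4888 (fit on the compared groups alone) over the alternatives that keep all day 14 mice, and from 2752 to 3003 with a library left out. The 112 genes whose effect differed from day 5 moved more: 374 without a filter, 187 with DESeq2, 31 with limma-voom, 869 with only the compared groups fitted, 51 in thinned libraries and 13 to 61 with a library left out; the cause was not tested, apart from fewer counts under thinning and fewer mice. Replicate numbers were not shown to pair mice across groups (correlation of deviations 0.0685 over 11994 genes and 0.183 over the 6542 with a mean log2 CPM of at least 3; 2 pairs); with the replicate block the counts were 4129 and 108. Of 155 named genes that passed at day 14, 141 passed under every alternative that tested them and 14 lost the call under at least 1; of 13 that did not pass, 7 (Alas1, Camp, Hba-a1, Hbb-bs, Itgam, Lyz2 and Ngp) passed under at least 1, each of them in the fit on the compared groups alone. No named gene reversed. List counts stayed within 1.5 times in 443 of 540 values for rises and 468 of 540 for falls. A lone mouse in a group is assumed to vary like the other groups. Depth limits genes near 0.895 CPM.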

Other observations

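A few genes of macrophages rose in the AG120 libraries although the monocyte and macrophage list as a whole went both ways; they were picked after their values were seen. Cd163, the hemoglobin scavenger receptor, had 0 and 2 counts in vehicle and 8 and 13 counts in AG120 (adjusted p = 0.0105, edgeR quasi-likelihood test with Benjamini-Hochberg adjustment), and its adjusted p was 0.0603 without AG120 replicate 2 and 0.0966 without vehicle replicate 1. C1qa had 6 and 8 counts in vehicle and 26 and 69 counts in AG120 and Slc40a1, which macrophages also use to export iron, 6 and 8 counts in vehicle and 88 and 105 counts in AG120. Slc40a1 is also among the iron genes given above. The other C1q chains were below the filter and have no call. C1qb had 2 and 1 counts in vehicle and 1 and 8 counts in AG120, and C1qc had 0 and 3 against 0 and 5. Adgre1, which encodes the macrophage antigen F4/80, had 0 counts in both AG120 libraries. Of the 20 tested genes of the monocyte and macrophage list, 3 rose and 6 fell, Tyrobp and Cd68 among the falls. The part of macrophage RNA in these values was not tested.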
